A study of Mus musculus with 12 samples.

Results

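The genes followed here make, lengthen and desaturate fatty acids in the cytosol and endoplasmic reticulum, and activate them to acyl-CoA. They are 33 genes chosen by name from 8 steps of this pathway, of 35675 genes summed in each library. The choice was made with earlier results of these data known. Shares of all genes therefore stand beside the counts of these 33 as description, not as a test. RNA was sequenced from oligodendrocyte-enriched cells of the mouse spinal cord, sorted at postnatal day 10 by tdTomato fluorescence and large size. The 4 RalAB cKO mice carried RalAflox/flox and RalBflox/flox, the 4 RalA cKO mice carried RalAflox/flox alone, and the 4 control mice carried neither, with 1 library per mouse. All 3 groups also carried CnpCre and the reporter Rosa26-StopFlox-TdTomato. CnpCre is a recombinase driven from the Cnp gene, which is active in oligodendrocytes and in other myelinating glia, so deletion is limited to the cells in which it has acted. Both Ral proteins are Ras-like GTPases that bind the exocyst, a complex tethering vesicles to the plasma membrane.

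Myelin is mostly lipid, and an oligodendrocyte that is wrapping axons makes much of its own fatty acid. Citrate leaves the mitochondrion and is split to acetyl-CoA, which is carboxylated to malonyl-CoA and joined by fatty acid synthase to palmitate. Palmitate is then lengthened at the endoplasmic reticulum in a cycle of condensation, reduction, dehydration and reduction, and desaturases put in double bonds. Long-chain acyl-CoA synthetases activate free fatty acids for membranes, storage or oxidation, and the transcription factor SREBP-1, made from Srebf1, drives many of these genes in liver and other tissues.

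Libraries held 10.93 to 15.44 M estimated counts, and all 33 genes passed the filter on low counts among 13456 genes tested. Levels of single genes are given as CPM (counts relative to library size, scaled by TMM), gene coordinates are on GRCm38, and differences as log2 fold changes ± standard error from edgeR with 4 mice per group. The threshold was an adjusted p of 0.05 over all genes tested. Markers of oligodendrocytes, 15 genes such as Mbp, summed to 100220 to 127979 CPM in RalAB cKO, 114189 to 133503 CPM in RalA cKO and 97538 to 126621 CPM in control, so markers of the labelled cell type were abundant in every library. For the targeted genes, Rala showed a log2 difference of -0.39 ± 0.15, adjusted p = 0.0832 (RalAB cKO against control) and of -0.31 ± 0.15, adjusted p = 0.236 (RalA cKO against control), with -0.08 ± 0.15, adjusted p = 0.815 between the mutants. Ralb showed -0.28 ± 0.15, adjusted p = 0.216 in RalAB cKO and -0.32 ± 0.15, adjusted p = 0.229 in RalA cKO, where it is not floxed, both against control, and 0.03 ± 0.15, adjusted p = 0.936 between the mutants. Summed counts of the targeted genes thus passed in neither mutant, and those of Ralb did not separate the mutants. Which exons the floxed alleles remove was not known here, so counts over the whole gene need not show a deletion, and the genotypes are used as labelled. Microglial markers summed to 1483 to 2701 CPM in RalAB cKO, 219 to 370 CPM in RalA cKO and 335 to 747 CPM in control, and 17 of 18 were higher in RalAB cKO than in control. Astrocyte markers summed to 309 to 361 CPM in RalAB cKO, 389 to 582 CPM in RalA cKO and 439 to 744 CPM in control, and 9 of 11 were lower in RalAB cKO. Of the precursor markers 5 of 8, of the oligodendrocyte markers 6 of 15 and of the neuronal markers 3 of 11 were lower in RalAB cKO than in control. Of all genes tested 9.39% were called higher and 9.02% lower in this comparison. Of 5 erythroid markers 1 was lower, which is 1 gene and no result about that list. In sorted bulk samples, fewer cells of a type and less RNA per cell cannot be told apart.

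In RalAB cKO against control 17 of the 33 genes fell, from citrate export to acyl-CoA activation, and 1 rose, the elongase gene Elovl4. Scd1, Acss2, Elovl2 and Acsl6 fell most, by 3.98-fold, 3.01-fold, 2.61-fold and 2.38-fold. Fasn and Srebf1 did not pass. Of all genes tested 18.4% passed in this comparison, 9.39% higher and 9.02% lower (1264 and 1214 genes, or 1002 and 1419 where libraries were scaled by their totals alone). The median of the 33 log2 fold changes was -0.50, against -0.01 over all genes tested. Of the 33, 28 lay below 0, beside 51.1% of all genes. Libraries of the mutant and the control did not overlap for 20 genes that were lower and 2 that were higher, beside 9.34% and 9.88% of all genes. The count of lower genes was 14 to 19 in 25 other settings, the lowest without control 4. Of the 18 calls 13 held in each of these settings, among them each library left out in turn. Fads3 and Acsl4 were the least stable, and Slc25a1, Elovl5 and Acsl6 each missed the threshold in 1 setting.

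With RalA alone targeted, 2 of the 33 genes fell, the acyl-CoA synthetase genes Acsl1 and Acsl3, and 0 rose. Of all genes tested 2.78% passed in this comparison, 1.71% higher and 1.07% lower (230 and 144 genes, or 176 and 250 where libraries were scaled by their totals alone). At an unadjusted p under 0.05, 12 of the 33 genes were lower and 2 higher. No share of all genes at this unadjusted threshold was at hand, so these counts are not set against one. DESeq2 called 5 lower and 0 higher, limma-voom 4 lower and 0 higher, and limma-voom with quality weights 5 lower and 1 higher. Over all genes DESeq2 called 470 lower and 613 higher, limma-voom 126 and 208, and limma-voom with quality weights 681 and 950. The median log2 fold change was -0.29, against -0.02 over all genes. Of the 33, 23 lay below 0, beside 52.5% of all genes. Libraries did not overlap for 7 genes that were lower (Me1, Scd1, Scd2, Fads1, Acsl1, Acsl3 and Acsl4) and for Fads6, which was higher, beside 5.77% and 5.64% of all genes. RalA cKO 3 was the lowest library of its group for 23 of the 33 genes, and without it the median was -0.21 and 0 genes were called. Without RalA cKO 4, control 2 or control 4 likewise 0 were called, so the 2 calls rest on every one of these libraries. In the same comparison 3 of 18 microglial markers were called lower (median -0.79, 16 lower at an unadjusted p under 0.05). Of 15 oligodendrocyte markers 2 were called higher (median 0.29, 8 higher at an unadjusted p under 0.05). Among neuronal, pericyte and fibroblast, endothelial and precursor markers edgeR called 0, with medians of -1.15, -0.81, -0.74 and -0.60. At an unadjusted p under 0.05, 5 of 11, 4 of 8, 6 of 9 and 4 of 8 of them were lower and 0 higher. The unadjusted marker counts too have no share of all genes beside them, and are not read as a shift in a cell type. The astrocyte median was -0.22, with 0 called. The part of these cell types in the differences was not tested.

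Between the mutants, 13 genes were lower in RalAB cKO than in RalA cKO, and each of them was also called lower in RalAB cKO against control. Elovl4 was again the only one of the 33 that rose. Of all genes tested 11.5% passed, 7.03% higher and 4.5% lower, and the median log2 fold change was -0.41 for the 33 genes and -0.03 over all. Libraries of the mutants did not overlap for 17 genes that were lower and for 1 that was higher, beside 7.63% and 9.65% of all genes. The comparisons share libraries, so their values are given side by side and not as independent tests. Of the 14 calls 7 held in each of the 25 settings.

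**Figure D1:**
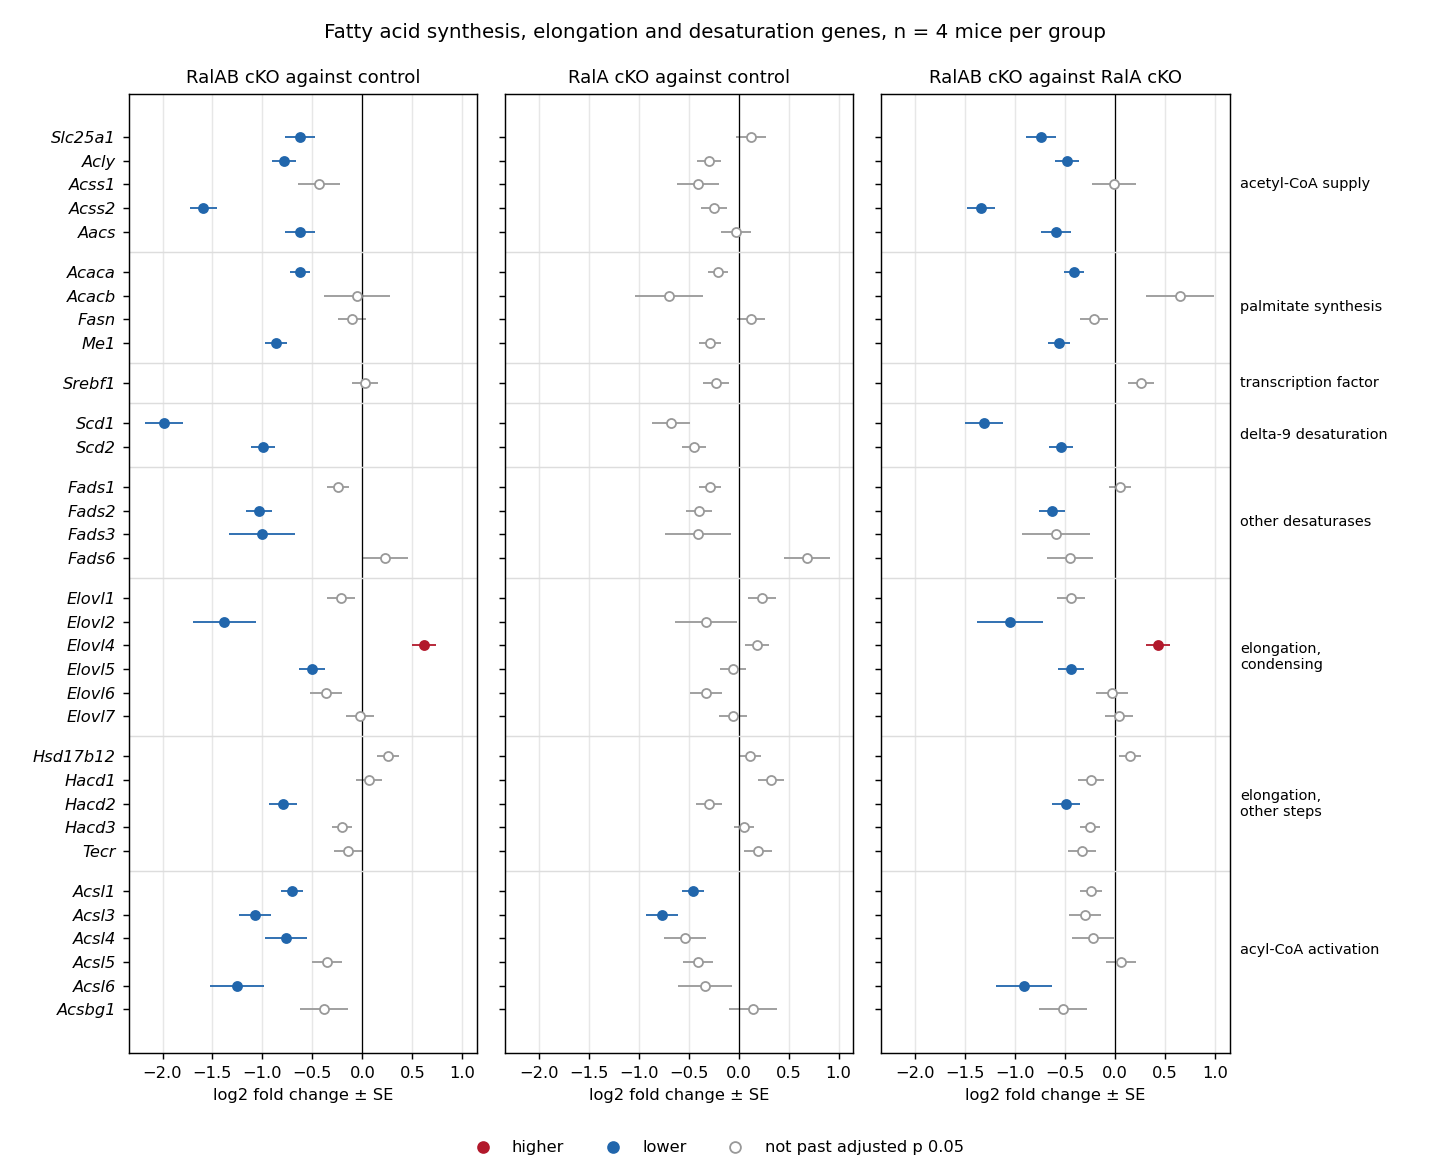
Log2 fold change ± standard error of the 33 genes, ordered by step from acetyl-CoA supply to acyl-CoA activation, in RalAB cKO against control (left), RalA cKO against control (middle) and RalAB cKO against RalA cKO (right), with 4 mice per group. Filled points passed an adjusted p of 0.05 (blue lower, red higher): 17 lower and 1 higher on the left, 2 lower in the middle, and 13 lower and 1 higher on the right.

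Genes that supply acetyl-CoA fell in RalAB cKO in 4 of 5 cases. Acss2 encodes the synthetase that turns cytosolic and nuclear acetate into acetyl-CoA. Acss2 (ENSMUSG00000027605, chr2:155517948-155585724, plus strand) stood at 101, 118, 121 and 106 CPM in the RalAB cKO libraries, at 296, 322, 222 and 286 CPM across RalA cKO and at 372, 318, 263 and 391 CPM across control. Every RalAB cKO library lay under the lowest RalA cKO and control library, while RalA cKO and control overlapped. The difference was -1.59 ± 0.14, adjusted p = 9.98e-06 in RalAB cKO against control, -0.25 ± 0.13, adjusted p = 0.272 in RalA cKO against control and -1.34 ± 0.14, adjusted p = 1.43e-05 between the mutants. Per length, Acss2 held 10.3% ± 0.725 of the TPM of these 5 genes in RalAB cKO, 15.1% ± 0.23 in RalA cKO and 17.1% ± 1 in control (SD, n = 4). The RalAB cKO shares, 9.64% to 11.2%, lay below those of RalA cKO, 14.8% to 15.4%, and of control, 16.2% to 18.5%.

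Acly encodes ATP citrate lyase, which splits citrate in the cytosol. Acly (ENSMUSG00000020917, chr11:100476353-100528000, minus strand) stood at 452, 537, 520.2 and 471 CPM in the RalAB cKO libraries, at 707, 789, 592 and 685 CPM across RalA cKO and at 959, 855, 695 and 893 CPM across control. The 4 RalAB cKO libraries lay below all others, and RalA cKO overlapped control. It fell by 0.78 ± 0.12 in RalAB cKO against control on the log2 scale (adjusted p = 0.000401) and by 0.48 ± 0.12 against RalA cKO (adjusted p = 0.0129). That second call was lost without RalA cKO 2 (-0.42, adjusted p = 0.0612).

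Slc25a1, the mitochondrial citrate carrier, stands before Acly in the route. Slc25a1 (ENSMUSG00000003528, chr16:17925223-17928219, minus strand) stood at 181, 232, 235 and 223 CPM in the RalAB cKO libraries, at 390.3, 435, 273 and 360.4 CPM across RalA cKO and at 416, 299, 272 and 353 CPM across control. RalAB cKO lay below both other groups, which overlapped, and the highest library was of RalA cKO. The difference was -0.62 ± 0.15, adjusted p = 0.00996 against control and -0.74 ± 0.15, adjusted p = 0.00361 against RalA cKO, while RalA cKO differed from control by 0.12 ± 0.15, adjusted p = 0.655. Without control 1 and RalAB cKO 1 together the difference from control was -0.41 (adjusted p = 0.0502).

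Aacs encodes a cytosolic synthetase that activates acetoacetate for lipid synthesis. Aacs (ENSMUSG00000029482, chr5:125475814-125517410, plus strand) stood at 286, 381, 373 and 355 CPM in the RalAB cKO libraries, at 554, 607, 409 and 524 CPM across RalA cKO and at 650.1, 446, 461 and 589 CPM across control. Again the RalAB cKO libraries were the 4 lowest and the other groups overlapped. Aacs differed by -0.62 ± 0.15, adjusted p = 0.00815 in RalAB cKO against control and by -0.59 ± 0.15, adjusted p = 0.0144 against RalA cKO, the second lost without RalA cKO 2 (-0.51, adjusted p = 0.0631). Acss1, the mitochondrial acetate synthetase, was low at 8.82 ± 1.74 CPM in RalAB cKO, 8.92 ± 1.82 CPM in RalA cKO and 11.9 ± 3.19 CPM among controls (SD, n = 4), and did not pass (-0.43 ± 0.21, adjusted p = 0.178 in RalAB cKO against control). Without control 3 the difference was -0.24 (adjusted p = 0.487). That library was the highest for Acss1. Among controls it was also the highest in every marker sum except the ependymal and oligodendrocyte sums, and in the latter the lowest (97538 CPM). Its astrocyte sum was 744 CPM, against 439 to 468 CPM in the other controls. The neuronal sum was 196 CPM, against 67.8 to 92.3 CPM, and the precursor sum 3957 CPM, against 2668 to 3124 CPM. The part of these cell types in the difference was not tested.

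RefSeq promoter windows on GRCm38.p6, from 250 bases before to 50 bases after a gene's start, were at hand for 30 of the 33 genes, in 38 windows. Scd1, Scd2 and Fads1 had none. Windows of Acss2 and Acly, the 2 supply genes with the smallest p, are shown with that of Fasn, which did not pass, because these 3 genes belong to the same route and the data set them apart. Capitals mark CCAAT on either strand.
Acss2, chr2:155517793-155518092, plus strand: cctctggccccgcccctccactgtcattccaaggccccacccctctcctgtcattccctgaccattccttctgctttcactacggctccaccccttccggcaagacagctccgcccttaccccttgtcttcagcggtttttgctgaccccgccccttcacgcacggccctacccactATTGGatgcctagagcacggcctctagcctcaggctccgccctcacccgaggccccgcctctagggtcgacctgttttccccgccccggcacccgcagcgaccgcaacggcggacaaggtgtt
Acly, chr11:100527951-100528250, minus strand: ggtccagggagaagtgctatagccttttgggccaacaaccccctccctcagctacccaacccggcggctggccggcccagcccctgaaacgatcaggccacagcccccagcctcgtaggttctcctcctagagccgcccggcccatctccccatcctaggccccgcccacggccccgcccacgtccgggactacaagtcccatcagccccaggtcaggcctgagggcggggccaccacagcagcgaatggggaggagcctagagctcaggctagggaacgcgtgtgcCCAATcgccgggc
Fasn, chr11:120824498-120824797, minus strand: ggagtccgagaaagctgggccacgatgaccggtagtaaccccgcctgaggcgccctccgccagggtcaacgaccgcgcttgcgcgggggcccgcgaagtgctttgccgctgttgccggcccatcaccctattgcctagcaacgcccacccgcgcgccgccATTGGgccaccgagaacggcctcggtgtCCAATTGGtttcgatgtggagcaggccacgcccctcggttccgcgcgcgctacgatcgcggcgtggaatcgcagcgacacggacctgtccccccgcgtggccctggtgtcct
Acss2 holds the box once, read on the opposite strand, Acly once, after the start, and Fasn 3 times, the last 2 overlapping on opposite strands. Searched on both strands, CCAAT was in 55.3% of the 38 windows and in 37.4% of all 32851 windows in the table. It was in 50% of the 20 windows of genes that fell in RalAB cKO and in 58.8% of the 17 windows of genes that were not called there. GGGCGG, the GC box, was in 70% and 64.7% of these windows and in 35.7% of all windows. CACGTG, the E-box, was in 10% and 5.88% and in 7.15% of all windows. TCACNCCAC, a form of the sterol response element, was in 1 of the 38 windows, that of the inner Acsl1 start given further on, and in 1.24% of all windows. A match of letters describes the sequence and is not a binding site, and a window without the letters says nothing of binding elsewhere.

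Acaca, Me1 and Fasn carry the next steps, and 2 of the 4 genes of this group fell in RalAB cKO. Acaca encodes acetyl-CoA carboxylase 1, which makes malonyl-CoA for synthesis. Acaca (ENSMUSG00000020532, chr11:84129672-84401651, plus strand) stood at 142, 143, 149 and 124 CPM in the RalAB cKO libraries, at 189.5, 192, 177 and 182 CPM across RalA cKO and at 218, 219.9, 184 and 236 CPM across control. RalAB cKO lay lowest without overlap, and RalA cKO overlapped control in its upper libraries. Its difference was -0.62 ± 0.10, adjusted p = 0.000476 in RalAB cKO against control, -0.21 ± 0.10, adjusted p = 0.205 in RalA cKO against control and -0.41 ± 0.10, adjusted p = 0.0105 between the mutants. Of the 31-base words of its transcripts 33.5% also occur in other annotated genes, 31.7% in the predicted gene Gm5182, so its counts could be split between them. Me1 encodes cytosolic malic enzyme, a source of NADPH for synthesis. Me1 (ENSMUSG00000032418, chr9:86581371-86695953, minus strand) stood at 70.2, 80.8, 68.8 and 59.8 CPM in the RalAB cKO libraries, at 100.5, 105, 99 and 108 CPM across RalA cKO and at 115, 144, 119 and 129 CPM across control. The 3 groups did not overlap at all: RalAB cKO was lowest, RalA cKO lay between, and control was highest. Me1 differed by -0.86 ± 0.11, adjusted p = 6.82e-05, -0.29 ± 0.11, adjusted p = 0.123 and -0.56 ± 0.11, adjusted p = 0.00181 in the same 3 comparisons, so the middle one did not pass. It shares 36.9% of its 31-base words with other genes, 28.6% with Gm7049.

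Fasn, the synthase itself, did not pass in any of the 3 comparisons. Fasn (ENSMUSG00000025153, chr11:120805846-120824547, minus strand) stood at 1451, 2008, 1876 and 1864 CPM in the RalAB cKO libraries, at 2194, 2233, 1787 and 2139 CPM across RalA cKO and at 2399, 1662, 1657 and 1978 CPM across control. All 3 groups overlapped, the lowest library being RalAB cKO 1 and the highest control 1. The difference was -0.10 ± 0.14, adjusted p = 0.688 in RalAB cKO against control, 0.12 ± 0.14, adjusted p = 0.634 in RalA cKO against control and -0.21 ± 0.14, adjusted p = 0.404 between the mutants. Per length Fasn was 738 ± 88.7 TPM in RalAB cKO, 860 ± 61.3 TPM in RalA cKO and 838 ± 58.3 TPM in control (SD, n = 4), the most abundant of this step by far. Acacb, the mitochondrial-membrane carboxylase whose product curbs fatty acid entry for oxidation, was near the limit of detection at 3.64 ± 0.864, 2.32 ± 0.616 and 3.77 ± 1.77 CPM in the same order, and did not pass.

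Srebf1 encodes SREBP-1, whose activity is set largely by cleavage of the protein, which RNA counts do not show. Srebf1 (ENSMUSG00000020538, chr11:60199089-60222581, minus strand) stood at 88.3, 126, 96.8 and 103 CPM in the RalAB cKO libraries, at 96.6, 94.7, 72 and 82.3 CPM across RalA cKO and at 112, 87.3, 103 and 103 CPM across control. The groups overlapped, with 1 RalAB cKO library the highest of the 12 and 1 RalA cKO library the lowest. It differed by 0.03 ± 0.13, adjusted p = 0.903 in RalAB cKO against control, -0.23 ± 0.13, adjusted p = 0.287 in RalA cKO against control and 0.26 ± 0.13, adjusted p = 0.236 between the mutants. The last passed with transcript length offsets only (0.40, adjusted p = 0.0491).

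Both stearoyl-CoA desaturase genes fell in RalAB cKO. These delta-9 desaturases turn stearate and palmitate into oleate and palmitoleate, and Scd2 is the main one in brain and myelin, while Scd1 prevails in liver and fat. Scd1 (ENSMUSG00000037071, chr19:44394455-44407879, minus strand) stood at 43.2, 40.8, 31.2 and 24.4 CPM in the RalAB cKO libraries, at 102, 109, 67.5 and 67.5 CPM across RalA cKO and at 122, 143, 135 and 155 CPM across control. All 3 groups stood apart, RalAB cKO lowest, RalA cKO between and control highest. Scd1 differed by -1.99 ± 0.19, adjusted p = 1.76e-05 in RalAB cKO against control, the largest fall of the 33 genes, by -0.68 ± 0.19, adjusted p = 0.0598 in RalA cKO against control, and by -1.31 ± 0.19, adjusted p = 0.000275 between the mutants. The RalA cKO difference missed the threshold here and in 15 of the 25 settings, adjusted p up to 0.196. It passed in the other 10, with DESeq2 (-0.67, adjusted p = 0.0137) and limma-voom (-0.71, adjusted p = 0.049) among them.

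Scd2 was far more abundant. Scd2 (ENSMUSG00000025203, chr19:44293674-44306864, plus strand) stood at 3574, 4138, 3955 and 3348 CPM in the RalAB cKO libraries, at 5722, 6197, 4801 and 5086 CPM across RalA cKO and at 7485, 7291, 6701 and 8343 CPM across control. Here too the 3 groups did not overlap and kept the same order. The difference was -0.99 ± 0.12, adjusted p = 6.2e-05 in RalAB cKO against control, a level of 50.4% of control, -0.45 ± 0.12, adjusted p = 0.0549 in RalA cKO against control, just short of the threshold, and -0.54 ± 0.12, adjusted p = 0.00671 between the mutants. The RalA cKO difference passed in 6 of the 25 settings, DESeq2 among them (-0.45, adjusted p = 0.00349). It missed the threshold in the other 19, adjusted p up to 0.174. Scd1 and Scd2 share 8.18% and 6.81% of their 31-base words with other genes, mostly Scd3. Together they took 0.373% ± 0.0366 of all counts in RalAB cKO, 0.536% ± 0.0631 in RalA cKO and 0.794% ± 0.0446 in control (SD, n = 4), with the 3 groups apart.

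Among the other desaturases, Fads2 and Fads3 fell in RalAB cKO and Fads1 and Fads6 did not pass. Fads2 encodes the delta-6 desaturase, the entry step to long polyunsaturated fatty acids. Fads2 (ENSMUSG00000024665, chr19:10062765-10101746, minus strand) stood at 111, 113, 115 and 111 CPM in the RalAB cKO libraries, at 214, 189, 143 and 149.9 CPM across RalA cKO and at 255, 217, 249.7 and 199.9 CPM across control. The 4 RalAB cKO libraries were nearly alike and below all others, and RalA cKO overlapped control. It differed by -1.03 ± 0.13, adjusted p = 6.2e-05 in RalAB cKO against control, -0.40 ± 0.13, adjusted p = 0.082 in RalA cKO against control and -0.63 ± 0.13, adjusted p = 0.00303 between the mutants. Fads1, the delta-5 desaturase that acts after Fads2, was 253 ± 24.9 CPM in RalAB cKO, 244 ± 34.3 CPM in RalA cKO and 299 ± 6.41 CPM among controls (SD, n = 4). All control libraries of Fads1, 290.2 to 306 CPM, lay above those of both mutants, yet it did not pass (-0.24 ± 0.11, adjusted p = 0.141 in RalAB cKO and -0.29 ± 0.11, adjusted p = 0.137 in RalA cKO). Of the TPM of the 4 genes Fads1 thus held 64.1% ± 1.5 in RalAB cKO, 53.5% ± 1.86 in RalA cKO and 52.3% ± 3.24 in control, with no overlap between RalAB cKO and the others.

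Fads3, a relative of Fads2 that acts on sphingoid bases, was close to the limit of detection. Fads3 (ENSMUSG00000024664, chr19:10041569-10060110, plus strand) stood at 2.97, 2.12, 1.44 and 3.27 CPM in the RalAB cKO libraries, at 6.26, 3.1, 2.27 and 3.2 CPM across RalA cKO and at 6.16, 4.12, 5.63 and 3.73 CPM across control. RalAB cKO lay below control, and RalA cKO overlapped both. It fell to 49.9% of control in RalAB cKO (adjusted p = 0.0472), a call that was lost in 12 of the 25 settings, among them those without RalAB cKO 2, 3 or 4, or RalA cKO 2 or 4, or control 1, 2, 3 or 4, adjusted p up to 0.264 over all settings. Fads6, a member of the family by sequence, was 9.38 ± 1.85 CPM in RalAB cKO, 12.8 ± 1.01 CPM in RalA cKO and 7.98 ± 2.81 CPM among controls (SD, n = 4). All 4 RalA cKO libraries of Fads6 lay above the other 8, without passing (0.68 ± 0.23, adjusted p = 0.101 against control).

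Of the 6 elongase genes, which encode the condensing enzymes, 1 rose and 2 fell in RalAB cKO. Elovl4 builds very long chains, in retina and skin above all. Elovl4 (ENSMUSG00000032262, chr9:83778692-83806277, minus strand) stood at 71.3, 74.2, 72.7 and 73.3 CPM in the RalAB cKO libraries, at 44.3, 53.9, 54.6 and 62.7 CPM across RalA cKO and at 40.7, 57.3, 48 and 44.1 CPM across control. The 4 RalAB cKO libraries were above all others and nearly alike, and RalA cKO overlapped control. Elovl4 rose by 1.53-fold in RalAB cKO against control (0.62 ± 0.12, adjusted p = 0.00221) and by 1.35-fold against RalA cKO (0.43 ± 0.12, adjusted p = 0.025), the second lost in 6 of the 25 settings, among them those without RalAB cKO 2, 3 or 4, or RalA cKO 1 or 2, adjusted p up to 0.175 over all settings. Microglial markers were higher in the same group, and their part in this rise was not tested.

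Elovl2, which lengthens long polyunsaturated chains, was low. Elovl2 (ENSMUSG00000021364, chr13:41182381-41220405, minus strand) stood at 3.04, 3.59, 1.44 and 1.9 CPM in the RalAB cKO libraries, at 7.6, 4.51, 5.24 and 3.42 CPM across RalA cKO and at 5.3, 5.24, 9.44 and 6 CPM across control. RalAB cKO lay below control, and 1 of its libraries overlapped RalA cKO. The difference was -1.38 ± 0.32, adjusted p = 0.00735 in RalAB cKO against control and -1.05 ± 0.33, adjusted p = 0.0468 against RalA cKO, and the second was lost in 14 of the 25 settings. These included the fits without RalAB cKO 3 or 4, or RalA cKO 1, 2 or 3, or control 1, 2 or 4, adjusted p up to 0.224 over all settings. Without control 3, the highest library of this gene and of the astrocyte, neuronal and precursor sums, the difference from control was -1.15 (adjusted p = 0.0287). The part of the lower astrocyte, precursor and neuronal markers in this difference was not tested.

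Elovl5 works on the same class of chains at shorter length. Elovl5 (ENSMUSG00000032349, chr9:77917364-77984519, plus strand) stood at 114, 110.2, 102 and 73.8 CPM in the RalAB cKO libraries, at 132, 147, 126 and 137 CPM across RalA cKO and at 118, 138, 149 and 158 CPM across control. RalAB cKO was lowest, with its library 4 far under the other 3, and RalA cKO overlapped control. It fell by 0.50 ± 0.13 in RalAB cKO against control on the log2 scale (adjusted p = 0.0146) and by 0.44 ± 0.13 against RalA cKO (adjusted p = 0.0374). The difference from control missed the threshold without control 4 (-0.43, adjusted p = 0.054), and that from RalA cKO missed it in 10 of the 25 settings, among them those without RalAB cKO 3 or 4, or RalA cKO 1, 2 or 4, or control 2, adjusted p up to 0.126 over all settings. Elovl1, which makes the saturated very long chains of myelin lipids, was 557 ± 92.8 CPM in RalAB cKO, 753 ± 68.2 CPM in RalA cKO and 642 ± 110 CPM among controls (SD, n = 4). It did not pass against control (-0.21 ± 0.14, adjusted p = 0.347), and between the mutants it was just short of the threshold (-0.44 ± 0.14, adjusted p = 0.0606) with no overlap of libraries. It was called there in 8 of the 25 settings, DESeq2 (adjusted p = 0.0342) and library totals alone (adjusted p = 0.016) among them. Elovl6, which lengthens palmitate to stearate, differed by -0.36 ± 0.16, adjusted p = 0.131, and Elovl7 by -0.02 ± 0.14, adjusted p = 0.958, both in RalAB cKO against control.

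Of the enzymes that complete the elongation cycle 1 of 5 fell in RalAB cKO. Hacd2 encodes a 3-hydroxyacyl-CoA dehydratase. Hacd2 (ENSMUSG00000035376, chr16:35022428-35109177, plus strand) stood at 47.8, 50.9, 53.5 and 37.2 CPM in the RalAB cKO libraries, at 66.2, 69.6, 62.6 and 67.6 CPM across RalA cKO and at 79.8, 97.9, 62.8 and 87.8 CPM across control. RalAB cKO lay below both other groups, and RalA cKO overlapped only the lowest control. Hacd2 differed by -0.79 ± 0.14, adjusted p = 0.000861 in RalAB cKO against control, -0.30 ± 0.13, adjusted p = 0.194 in RalA cKO against control and -0.49 ± 0.14, adjusted p = 0.0253 between the mutants, the last lost in 4 of the 25 settings, among them those without RalAB cKO 4, or RalA cKO 2 or 4, adjusted p up to 0.112 over all settings. Its paralogues Hacd1 and Hacd3 did not pass in RalAB cKO (0.07 ± 0.13, adjusted p = 0.738, and -0.20 ± 0.10, adjusted p = 0.167), nor did the reductases of the cycle's first and last reduction, Hsd17b12 (0.26 ± 0.11, adjusted p = 0.132) and Tecr (-0.14 ± 0.14, adjusted p = 0.555). Hsd17b12 had 353 to 452 CPM in RalAB cKO and 297 to 352 CPM in control, so its libraries only just stood apart. Of the 31-base words of Hacd1 33.9% occur elsewhere, chiefly in Gm11451, and 9.98% of those of Hacd2, chiefly in Gm7908.

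Of the 6 acyl-CoA synthetase genes 4 fell in RalAB cKO, and Acsl1 and Acsl3 also in RalA cKO. Acsl3, a synthetase of the endoplasmic reticulum and lipid droplets, was the most abundant of them. Acsl3 (ENSMUSG00000032883, chr1:78657825-78707743, plus strand) stood at 293, 255, 231 and 184 CPM in the RalAB cKO libraries, at 310.2, 366, 273 and 239 CPM across RalA cKO and at 414, 605, 447 and 559 CPM across control. Both mutants lay below control without overlap, and they overlapped each other. Acsl3 differed by -1.07 ± 0.16, adjusted p = 0.000395 in RalAB cKO against control and by -0.77 ± 0.16, adjusted p = 0.0207 in RalA cKO against control, a level of 47.6% and 58.7% of control, with -0.30 ± 0.16, adjusted p = 0.291 between the mutants. The RalA cKO call was lost when RalA cKO 3 was left out (-0.73, adjusted p = 0.0533) or RalA cKO 4 (-0.68, adjusted p = 0.0921). It was also lost when control 2 was left out (-0.67, adjusted p = 0.0932) or control 4 (-0.71, adjusted p = 0.0621).

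Acsl1 encodes a synthetase of mitochondria and endoplasmic reticulum that serves oxidation and storage in muscle and fat. Acsl1 (ENSMUSG00000018796, chr8:46471037-46536051, plus strand) stood at 171, 188, 186 and 157 CPM in the RalAB cKO libraries, at 212, 228, 191 and 199 CPM across RalA cKO and at 253, 314, 252 and 321 CPM across control. Every library of both mutants was below every control, and RalAB cKO was also below RalA cKO. The difference was -0.70 ± 0.11, adjusted p = 0.000477 in RalAB cKO against control, -0.46 ± 0.11, adjusted p = 0.0362 in RalA cKO against control and -0.24 ± 0.11, adjusted p = 0.196 between the mutants. The RalA cKO call was lost in 12 of the 25 settings, 8 of them without RalAB cKO 2 or 3, or RalA cKO 1, 2, 3 or 4, or control 2 or 4, adjusted p up to 0.143 over all settings.

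Acsl1 transcripts start at 2 places some way apart on chromosome 8, and the lower counts lay mainly in the transcript of the inner start. Acsl1-203 (ENSMUST00000110372), which starts at base 46490966, had 40.4, 60.9, 70.1 and 47.5 CPM in the RalAB cKO libraries, 95.9, 35.5, 24 and 4.59 CPM across RalA cKO and 126, 143, 124 and 153 CPM across control. No mutant library reached the lowest control, and RalA cKO varied most. Acsl1-201 (ENSMUST00000034046), from base 46471037, had 126, 124, 112 and 105 CPM in the RalAB cKO libraries, 112, 189, 161 and 190.0 CPM across RalA cKO and 123, 166, 126 and 161 CPM across control. These overlapped in both comparisons with control. The split between transcripts is the authors' estimate from shared reads and was not tested. Both RefSeq promoter windows are shown for this reason, with CCAAT and TCACNCCAC on either strand in capitals.
Acsl1 outer start, chr8:46470787-46471086, plus strand: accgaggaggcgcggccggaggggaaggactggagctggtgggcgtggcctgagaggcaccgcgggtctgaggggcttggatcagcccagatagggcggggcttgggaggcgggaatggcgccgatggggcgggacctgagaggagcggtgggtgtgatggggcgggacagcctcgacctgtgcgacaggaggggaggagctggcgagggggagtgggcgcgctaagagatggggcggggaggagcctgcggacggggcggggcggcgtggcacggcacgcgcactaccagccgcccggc
Acsl1 inner start, chr8:46490716-46491015, plus strand: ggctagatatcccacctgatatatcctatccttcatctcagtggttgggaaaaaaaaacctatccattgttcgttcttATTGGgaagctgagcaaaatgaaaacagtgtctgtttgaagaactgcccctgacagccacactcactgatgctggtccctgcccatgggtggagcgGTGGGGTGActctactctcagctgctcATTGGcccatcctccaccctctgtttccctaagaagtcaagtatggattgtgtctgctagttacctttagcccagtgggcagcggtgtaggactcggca
The inner window holds TCACNCCAC on the opposite strand at -76 from the start and CCAAT on the opposite strand at -172 and -49. The outer window holds neither, and has GGGCGG 7 times.

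Acly, on chromosome 11, has transcripts from more than 1 start, described here without a test. Acly-203 (ENSMUST00000107389) and Acly-201 (ENSMUST00000007131), which start at base 100528000 in the window shown above, had lower means in both mutants than in control. Acly-203 averaged 211 ± 11.9 CPM in RalAB cKO, 289 ± 22.2 CPM in RalA cKO and 391 ± 42.9 CPM among controls, and Acly-201 averaged 131 ± 35.7, 169 ± 63 and 278 ± 58.8 CPM in that order (SD, n = 4). Acly-207 (ENSMUST00000165111), which starts within the gene at base 100523598, averaged 147 ± 43.4 CPM in RalAB cKO, 229 ± 19.2 CPM in RalA cKO and 169 ± 40.4 CPM among controls, so its mean too was lower in RalAB cKO than in control. Its RalA cKO libraries, 214 to 257 CPM, were above all 8 others, while those of Acly-203 were below all 4 controls.

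**Figure D2:**
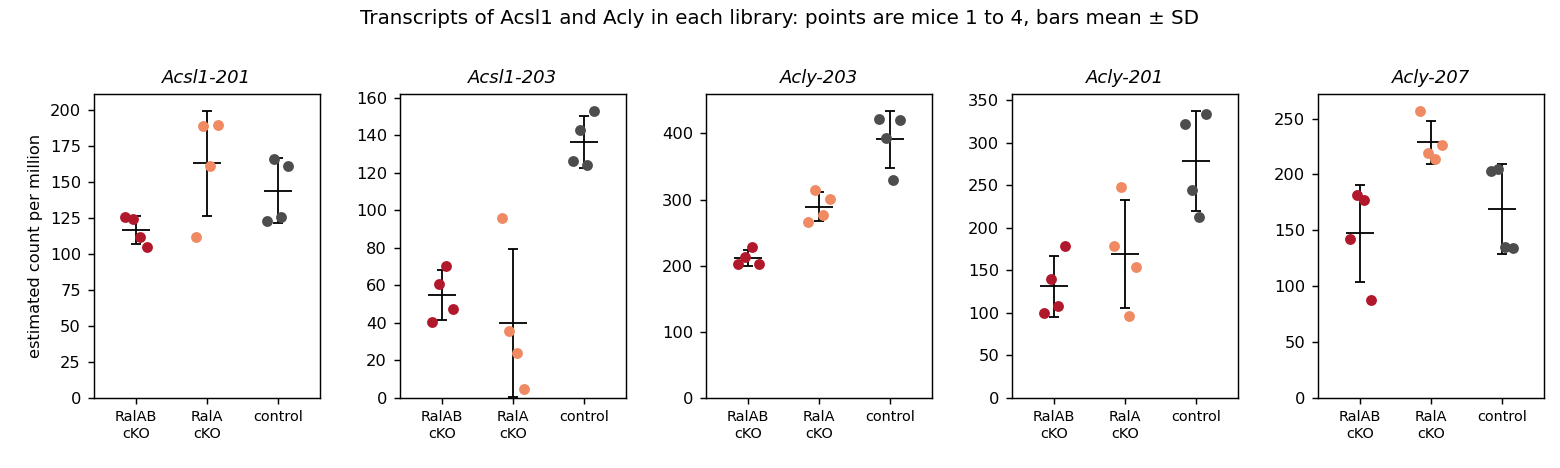
Estimated counts in CPM, scaled by TMM, of transcripts Acsl1-201, Acsl1-203, Acly-203, Acly-201 and Acly-207, left to right, in RalAB cKO, RalA cKO and control. Points are mice 1 to 4 and bars mean ± SD. Acsl1-203 averaged 54.7 CPM in RalAB cKO and 40 CPM in RalA cKO, against 137 CPM in control, while Acsl1-201 averaged 117, 163 and 144 CPM in that order.

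The other synthetase genes were low. Acsl6, which in brain favours docosahexaenoate, had the larger fall. Acsl6 (ENSMUSG00000020333, chr11:54303798-54364756, plus strand) stood at 7.28, 8.66, 4.79 and 5.86 CPM in the RalAB cKO libraries, at 16.5, 11.8, 10.5 and 11.3 CPM across RalA cKO and at 11.3, 10.9, 26.2 and 14.8 CPM across control. RalAB cKO lay below both other groups, and control 3 stood high. Acsl6 differed by -1.25 ± 0.27, adjusted p = 0.00502 in RalAB cKO against control, and by -0.90 without control 3 (adjusted p = 0.0148). That library was the highest control in every marker sum except the oligodendrocyte and ependymal sums. Between the mutants the difference was -0.91 ± 0.28, adjusted p = 0.0424, lost in 11 of the 25 settings, among them those without RalAB cKO 3 or 4, or RalA cKO 1, 2 or 4, or control 4, adjusted p up to 0.254 over all settings. Acsl4, which prefers arachidonate, comes next. Acsl4 (ENSMUSG00000031278, chrX:142317993-142390535, minus strand) stood at 11.2, 5.47, 9.99 and 6.77 CPM in the RalAB cKO libraries, at 8.76, 10.7, 11.1 and 8.4 CPM across RalA cKO and at 12.2, 15.1, 12.7 and 16.6 CPM across control. All mutant libraries of Acsl4 were below control, and the mutants overlapped. It differed by -0.76 ± 0.21, adjusted p = 0.0206 in RalAB cKO against control, and by -0.54 ± 0.21, adjusted p = 0.148 in RalA cKO. The first was lost in 5 of the 25 settings, among them those without RalAB cKO 2 or 4, or control 2 or 4, adjusted p up to 0.0748 over all settings. Acsl5 (-0.35 ± 0.15, adjusted p = 0.125) and Acsbg1, the bubblegum synthetase (-0.38 ± 0.24, adjusted p = 0.306), did not pass in RalAB cKO. Acsbg1 too was highest in control 3, at 65.8 CPM against 25.1 to 37 CPM in the other controls, and without that library its difference was -0.04 (adjusted p = 0.904). Precursor, neuronal and astrocyte markers had medians of -1.37, -1.28 and -1.05 in RalAB cKO against control. Whether any of these cell types bears on Acsl6 and Acsbg1 was not tested.

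**Figure D3:**
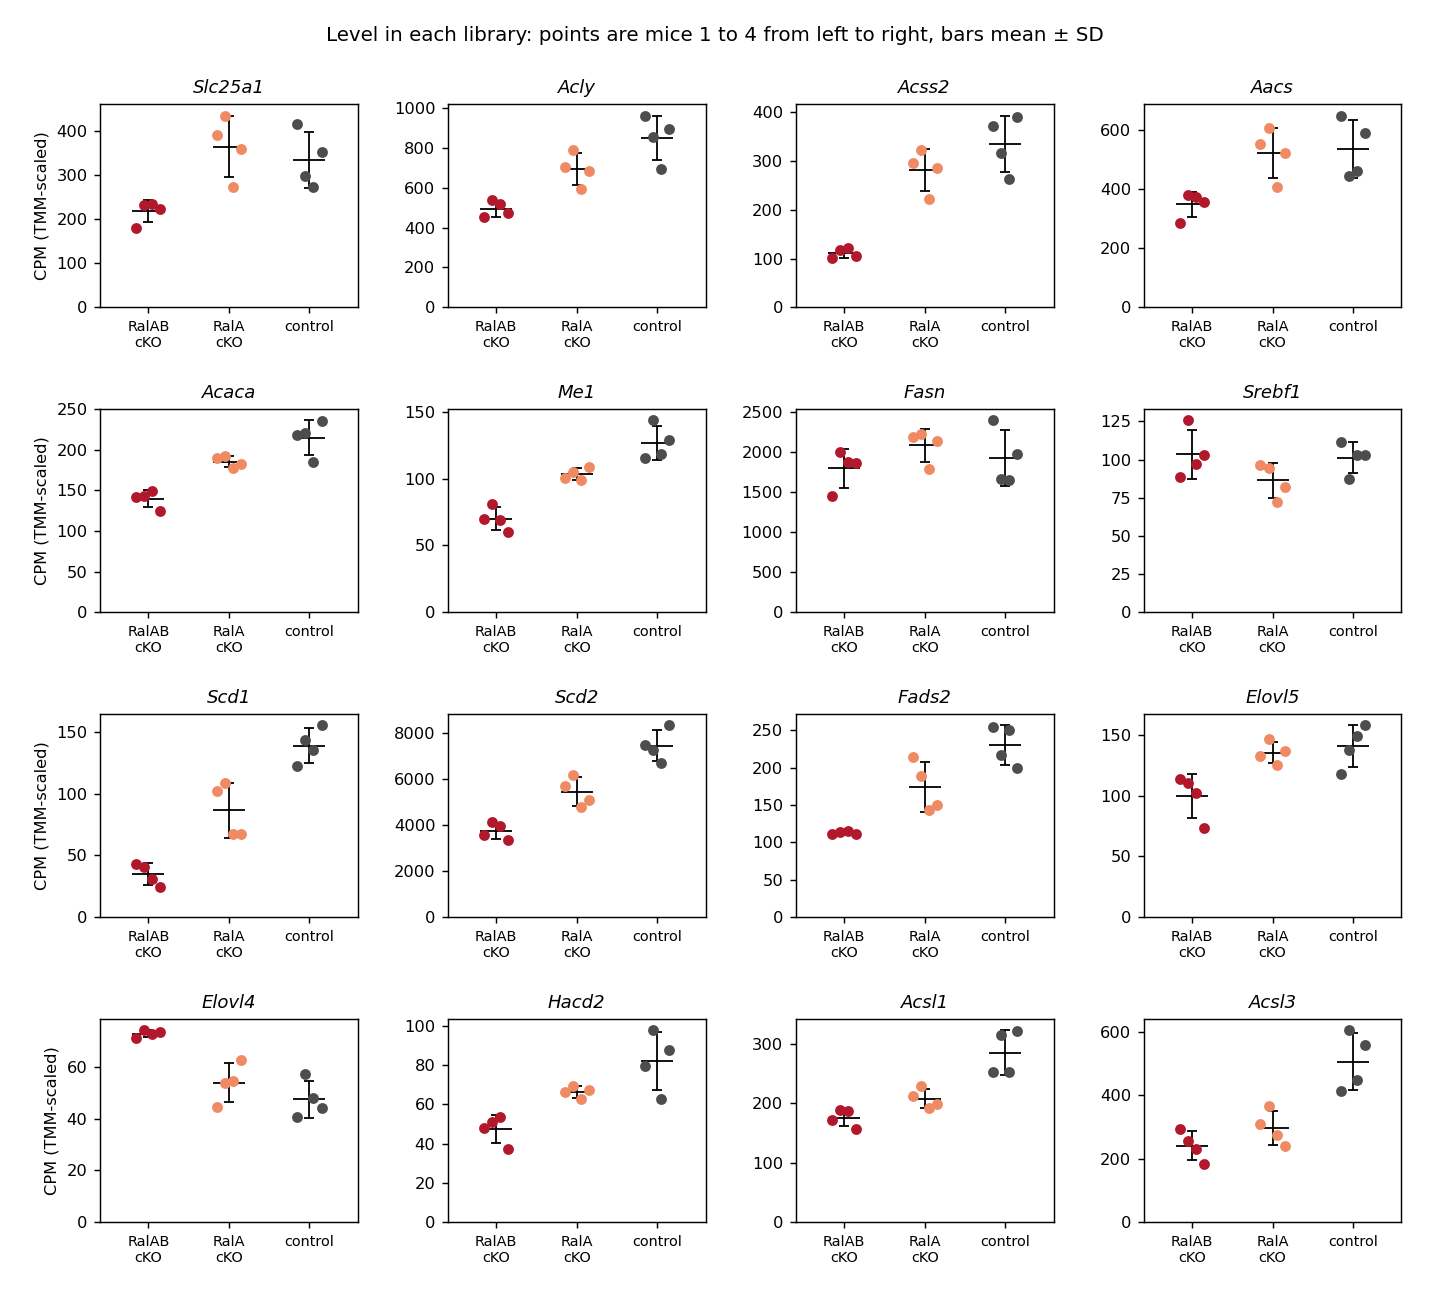
CPM scaled by TMM of 16 genes in each library, with RalAB cKO left, RalA cKO in the middle and control right. Points are mice 1 to 4 and bars mean ± SD. RalAB cKO lies below both other groups for Slc25a1, Acly, Acss2, Aacs, Acaca, Me1, Scd1, Scd2, Fads2, Elovl5, Hacd2 and Acsl1 and above them for Elovl4, while Fasn and Srebf1 overlap.

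Per length, the order of the genes changed at the top. Scd2 was the most abundant of the 33 in control at 2282 ± 134 TPM, ahead of Tecr at 1659 ± 196 TPM, with no overlap of libraries. In RalA cKO Tecr (1602 ± 143 TPM) and Scd2 (1454 ± 151 TPM) overlapped, and in RalAB cKO Tecr (1365 ± 134 TPM) was above Scd2 (1046 ± 128 TPM) in every library (SD, n = 4). Elovl1 followed at 751 ± 82.1 TPM in RalAB cKO, 983 ± 35.7 TPM in RalA cKO and 946 ± 119 TPM in control, next to Fasn, which it overlapped in RalAB cKO and control. At the other end Acacb was 1.22 ± 0.827, 0.763 ± 0.569 and 0.936 ± 0.408 TPM and Elovl2 1.01 ± 0.456, 1.97 ± 0.723 and 2.82 ± 1.05 TPM in RalAB cKO, RalA cKO and control. In control the mean of Fads6, 2.76 ± 0.926 TPM, was just under that of Elovl2. The next values keep the order RalAB cKO, RalA cKO and control. Scd2 made 98.8% ± 0.382, 97.9% ± 0.467 and 97.2% ± 0.514 of the TPM of both Scd genes in that order, Elovl1 on average 72.9% to 78.5% of the elongase TPM by group, and Tecr 72.1% to 76% of the TPM of the rest of the cycle. Among the genes with the largest falls by fold, Scd1, Elovl2 and Acsl6 were thus minor members of their steps. Together the 33 genes took 1.03%, 1.09%, 1.04% and 0.952% of counts in RalAB cKO mice, 1.43%, 1.45%, 1.23% and 1.24% in RalA cKO mice and 1.7%, 1.69%, 1.61% and 1.78% in control mice, with the 3 groups apart. Within these sums, on average 1.03%, 1.34% and 1.69%, the Scd genes made 0.373%, 0.536% and 0.794% in the same order. Of the single steps only delta-9 desaturation had the 3 groups apart in its share of counts.

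**Figure D4:**
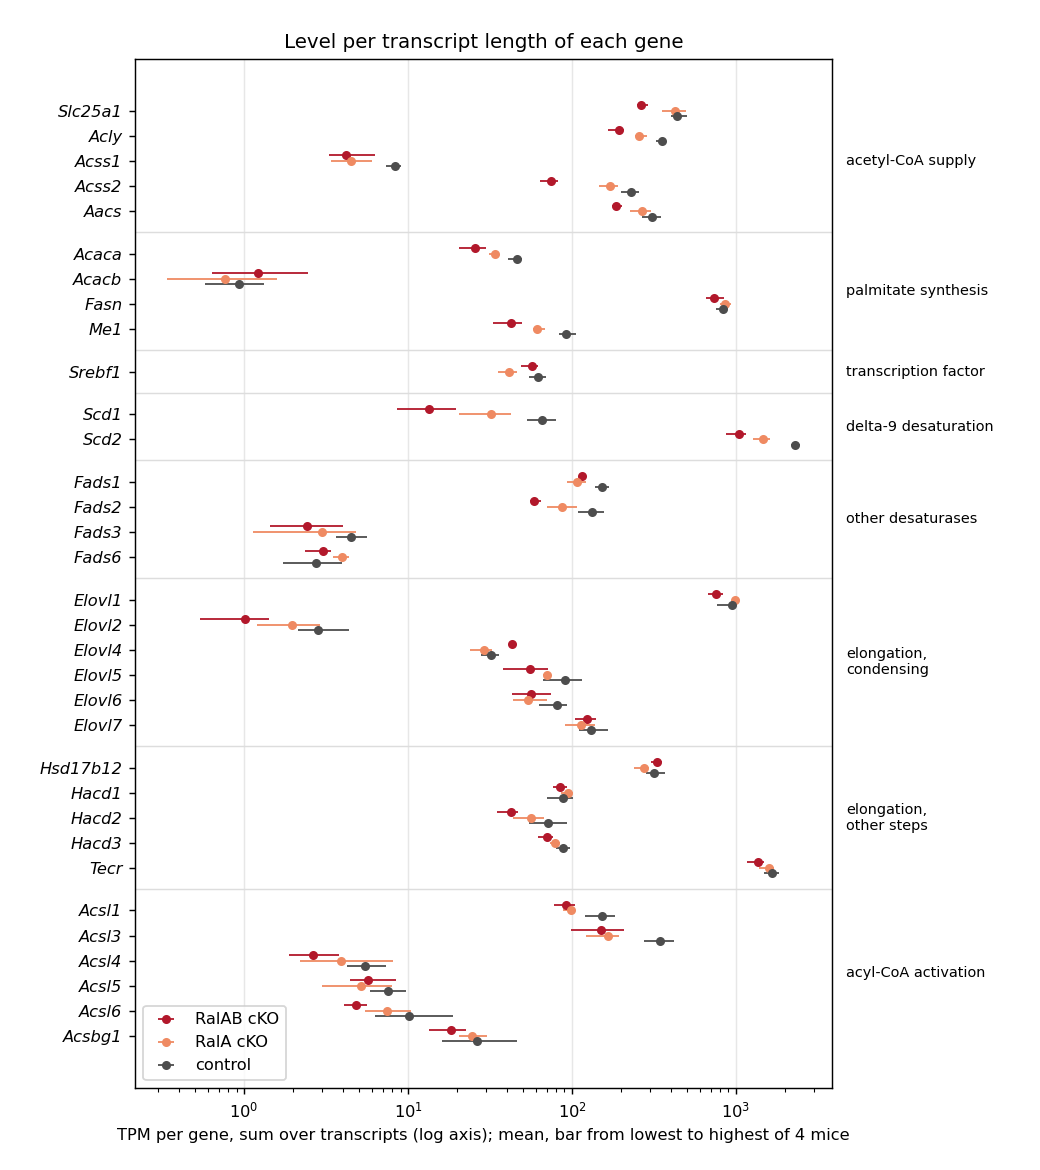
Level of each of the 33 genes in TPM on a log axis, by step; points are means of 4 mice and bars run from the lowest to the highest library, with RalAB cKO above RalA cKO and control within each gene. Scd2, at 1046 TPM in RalAB cKO, 1454 TPM in RalA cKO and 2282 TPM in control, leads in control, and Tecr, at 1365, 1602 and 1659 TPM, leads in both mutants.

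Genes around the pathway were read from 7 further lists, whose counts stand beside 9.39% of all genes called higher and 9.02% called lower in RalAB cKO against control. The counts of the regulator, NADPH, mitochondrial synthesis and oxidation lists lay near these shares and are no result about those lists. The other isozymes tested are too few for their counts to be set against the shares. Among 20 tested regulators of SREBP, LXR and PPAR signalling 3 rose and 2 fell in RalAB cKO against control. Insig1, which holds SREBP in the endoplasmic reticulum and is itself a target of SREBP, fell in both mutants. Its level was 115 ± 11 CPM in RalAB cKO, 147 ± 7.94 CPM in RalA cKO and 220 ± 32.4 CPM among controls (SD, n = 4), with the 3 groups apart. Insig1 differed by -0.93 ± 0.11, adjusted p = 6.08e-05 in RalAB cKO and by -0.58 ± 0.11, adjusted p = 0.0142 in RalA cKO, the second lost without RalA cKO 4 (adjusted p = 0.063). Mid1ip1, an activator of acetyl-CoA carboxylase, fell in RalAB cKO (-0.79 ± 0.11, adjusted p = 0.000172). Mlxipl, the carbohydrate response factor ChREBP, was low and rose in RalAB cKO, at 4.64 ± 1.33 CPM in RalAB cKO, 0.836 ± 0.227 CPM in RalA cKO and 0.757 ± 0.387 CPM among controls (SD, n = 4; 2.61 ± 0.41, adjusted p = 0.000476), and its partner Mlx rose by 0.45 ± 0.13, adjusted p = 0.0229, lost in 5 of the 25 settings, among them those without RalAB cKO 3 or 4, or control 3 or 4, adjusted p up to 0.0981 over all settings. Rxrb rose in RalA cKO by 0.51 ± 0.13, adjusted p = 0.0492, a call lost in 15 settings, among them those without RalAB cKO 2, 3 or 4, or RalA cKO 2 or 4, or control 2, 3 or 4, adjusted p up to 0.174 over all settings.

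Other isozymes, 9 tested, gave 2 higher and 1 lower in RalAB cKO. Me3, the mitochondrial NADP malic enzyme, fell (-1.85 ± 0.40, adjusted p = 0.00473), while Mlycd, which degrades malonyl-CoA (0.56 ± 0.17, adjusted p = 0.0336), and the dehydratase Hacd4 (1.63 ± 0.54, adjusted p = 0.0466) rose. The Mlycd call was lost in 9 settings, among them those without RalAB cKO 2, 3 or 4, or control 2, 3 or 4, adjusted p up to 0.114 over all settings. The Hacd4 call was lost in 15, among them those without RalAB cKO 2, 3 or 4, or RalA cKO 1, 2 or 4, or control 1, 2 or 4, adjusted p up to 0.128 over all settings. In RalA cKO Scd3 rose at a level near the limit of detection, 2.21 ± 1 CPM against 0.505 ± 0.0593 CPM in control (SD, n = 4; 2.10 ± 0.47, adjusted p = 0.026), and it shares sequence with Scd1 and Scd2. This call was lost in 9 settings, among them those without RalA cKO 2, 3 or 4, or control 2, 3 or 4, adjusted p up to 0.0919 over all settings. Of 9 genes of NADPH supply Aldh1l1, a folate enzyme and astrocyte marker, fell in RalAB cKO (-0.74 ± 0.20, adjusted p = 0.0185), and the median of the list was -0.02. The call was lost in 5 settings, among them those without RalAB cKO 2 or 3, or control 3, adjusted p up to 0.0922 over all settings. Of mitochondrial fatty acid synthesis, 0 of 8 genes passed in edgeR in RalAB cKO, where 2 were lower at an unadjusted p under 0.05, the median was -0.11, DESeq2 and limma-voom called 0 and limma-voom with quality weights 1.

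Some genes of uptake and storage were called in RalAB cKO against control, beside 9.39% of all genes higher and 9.02% lower. The counts of higher genes in these lists lay near that share and are no result about the lists. Of 18 tested genes of uptake, binding and thioesterases 1 rose and 4 fell. Lpl, lipoprotein lipase, rose to 23.6 ± 8.4 CPM in RalAB cKO, with 2.42 ± 1.37 CPM in RalA cKO and 2.4 ± 0.934 CPM among controls (SD, n = 4), and every RalAB cKO library was above the other 8 (3.29 ± 0.39, adjusted p = 7.6e-05 against control). Fabp7, a fatty acid binding protein of glia and precursors (-0.92 ± 0.20, adjusted p = 0.00504), and the thioesterase Acot7 (-0.59 ± 0.13, adjusted p = 0.00612) fell. Of 21 genes of glycerolipid assembly 3 rose and 5 fell. Plin2, the coat protein of lipid droplets, rose to 28.4 ± 8.43 CPM in RalAB cKO, with 10.2 ± 2.21 CPM in RalA cKO and 7.57 ± 1.2 CPM among controls (SD, n = 4; 1.90 ± 0.22, adjusted p = 4.38e-05 against control). Lpcat1 (0.67 ± 0.12, adjusted p = 0.00134) and Dgat2, which makes triglyceride (0.61 ± 0.15, adjusted p = 0.0108), rose as well. Of the 5 that fell, only the acyltransferase Mboat1 was among the 4 smallest p of the list (-1.87 ± 0.26, adjusted p = 0.000189).

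Of 25 genes of fatty acid oxidation 2 rose and 0 fell in edgeR, with 2 lower at an unadjusted p under 0.05, 0 lower by DESeq2 and limma-voom and 1 lower with quality weights. The 2 that rose were Cpt1a, the gate of fatty acids into mitochondria (0.64 ± 0.13, adjusted p = 0.00273), and Hadhb, a subunit of the trifunctional protein (0.27 ± 0.08, adjusted p = 0.0332), the second lost in 12 settings, among them those without RalAB cKO 2, 3 or 4, or control 1, 3 or 4, adjusted p up to 0.14 over all settings. Microglial markers rose in the libraries in which Lpl, Plin2, Mlxipl and Cpt1a rose, by a median of 1.92 over the 18 markers, and their part in these rises was not tested. In RalA cKO, edgeR called 0 genes of the NADPH, mitochondrial synthesis, uptake, glycerolipid and oxidation lists, beside 2.78% of all genes. For lists this short, 0 calls lay near that share and are no result about the lists. At an unadjusted p under 0.05 they had 0, 2, 1, 8 and 5 genes, with no share of all genes at hand. DESeq2 called 1, limma-voom 0 and limma-voom with quality weights 7.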

How the data were processed

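Poly(A) RNA of sorted spinal cord cells from 12 mice was sequenced from stranded libraries, per the labels' protocols. The authors deposited, for each library, an estimated count and a TPM value per transcript, with effective lengths, per the file headers. Trimmomatic 0.36, kallisto 0.44 and the build GRCm38.p6 stand in the submitters' processing notes, and the strand setting of the counting was not known here, so reads of overlapping genes on opposite strands may not be separable. Kallisto shares reads between similar transcripts by estimation, which can move counts between genes with common sequence.

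Of 121843 transcripts 121104 matched GENCODE vM21 and were summed to 35675 genes, and the 739 others held 0.2185% to 0.2772% of a library's counts. Summed estimated counts were rounded to whole numbers. Genes were kept by filterByExpr (minimum count 10, total 15). All 12 libraries entered 1 robust quasi-likelihood fit in edgeR 4.0.16 (R 4.3.3, TMM scaling, common biological coefficient of variation 0.199), with Benjamini-Hochberg adjustment over 13456 genes and a threshold of 0.05. Each standard error is the size of the log2 fold change divided by the root of the F statistic. TPM were summed per gene. DESeq2 1.42.0, limma 3.58.1, other scalings, filters, covariates and left-out libraries served as alternatives. Only the main edgeR fit, and none of the alternatives, was tested on simulated data. All pairs of libraries in a group differed by more than counting noise (chi-square per degree of freedom 9.09 to 39.5), so none is a copy of another in its group. Each counts as 1 sample because the labels name a separate mouse for each.

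All 33 genes could be named, with per-library values for those called in at least 1 comparison and for Fasn and Srebf1. Of each surrounding list up to 4 called genes with the smallest p in RalAB cKO against control, and up to 2 in RalA cKO against control, were named, except 1 that is not reported here. Transcripts were described where a called gene had at least 2 with 10% or more of its counts, and 2 such genes were chosen for the text after their values were seen. The 33 genes and all lists were chosen with earlier results of these data known.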

Additional observations from a re-analysis of the deposited data

Results flagged for a closer look

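Among 99 sets of 4 libraries, 1 per gene and group, 2 held a library far from the other 3, where chance gives about 1 in 20. Fads6, a desaturase-like gene, had 14.3 CPM in RalA cKO 1, against 12.1 to 12.39 CPM in the other RalA cKO libraries, a gap of 0.865 of the group's range, above Dixon's critical value for 4 samples. Hacd3, a dehydratase of the elongation cycle, had 155.9 CPM in control 2, against 137.6 to 139.9 CPM in the other controls, a gap of 0.872 of the range.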

How the results depend on the processing

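In 25 other settings 0 of the called values changed sign, as did 54 of all 2475 values, each of them uncalled. In RalA cKO against control the 2 lower genes of the pathway became 6 with library totals as the only scaling, 5 with DESeq2, 4 with limma-voom, 5 with limma-voom and quality weights, 1 with transcript length offsets, 1 with Y-linked expression as a covariate and 4 without control 1 and RalAB cKO 1 together. The 0 higher genes became 1 with quality weights and 1 with the Y-linked covariate. Of all genes 374 were called there, and 1083 with DESeq2, 1631 with quality weights and 1693 without those 2 libraries. RalAB cKO against control had 2478 calls, and 4022 and 3962 in the last 2 settings. Between the mutants there were 1551, and 2510 with quality weights. The 1 higher gene between them became 2 with length offsets and 0 with the Y-linked covariate. The cause of these shifts was not tested. With library totals alone the median of all genes moved to -0.138 in RalA cKO and -0.099 in RalAB cKO, both against control.

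With 1 library left out at a time, RalA cKO against control gave 85 to 947 calls and 0 to 4 lower genes of the pathway, RalAB cKO against control 1605 to 3209 calls, and the 2 mutants 7 to 15 lower and 0 to 1 higher genes of the pathway. Fewest calls came without RalA cKO 4 (85) and most without control 1 (947), and 7 lower genes between the mutants without RalA cKO 2.

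Mouse numbers are shared by the groups, but same-numbered libraries did not deviate together (12 correlations from -0.198 to 0.175, with 3 of 12 best matched by their own number). A fit with the number as a replicate block called 232 genes in RalA cKO and 2146 in RalAB cKO, both against control, and 1343 between the mutants.

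The same settings were applied to 21 tests of surrounding genes, a choice made after seeing the data, and 13 kept their call in every one.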
